A study of Mus musculus with 2 samples.

Results

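Replication-dependent histone genes were taken as the genes that have a protein-coding transcript and a symbol beginning with Hist1h, Hist2h, Hist3h or Hist4h, and 67 of the 55536 annotated genes met this rule. Of the 67, 6 code for the linker histone H1, 18 for H2A, 18 for H2B, 12 for H3 and 13 for H4. The RNA came from the hearts of 2 female mice, each 4 days old, of the hybrid strain B6CASTF1/J, which has a C57BL/6J and a CAST/EiJ parent. Both hearts were untreated as far as the labels say, and no allele, transgene or agent is listed beyond the hybrid background. The libraries form a single group, heart, with biological replicates numbered 1 and 2, so the design holds no contrast between conditions. Both animals carry the same donor entry in the labels, and that they are separate mice rests on the replicate numbers. Reads of the 2 parental alleles were not separated here.

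Histones are the proteins around which nuclear DNA is wound: H2A, H2B, H3 and H4 form the core of the nucleosome, and H1 binds the DNA where it enters and leaves. The genes studied here are transcribed mainly in S phase, when new DNA has to be packed, and most of their messages end in a short hairpin, the stem-loop, in place of a poly(A) tail. In the mouse heart around birth, cardiac muscle cells still divide before most of them leave the cell cycle in the first weeks of life. Libraries made from total RNA depleted of ribosomal RNA, as here, keep messages without a poly(A) tail, which selection on poly(A) would lose.

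The hairpin was looked for in the last exon of every protein-coding transcript model of a gene. Its pattern was a stem of 6 base pairs beginning with GG and ending with CC around a loop of 4 bases led by TTT. It was present in 44 of the 67 genes: 4 of 6 H1, 11 of 18 H2A, 10 of 18 H2B, 8 of 12 H3 and 11 of 13 H4 genes. Over the whole annotation, 214 of 55450 genes with a sequence (0.386%) held the pattern anywhere in a transcript of any type, a wider search. Of the 23 histone genes without a match, 15 have models with fewer than 30 bases after the stop codon, and 13 of these have none, so that the place of the hairpin lies outside the model. The 44 hairpins took 6 forms, shown here with the stem in capitals because they separate the H4 genes from the rest.
Form 1: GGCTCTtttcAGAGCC
Form 2: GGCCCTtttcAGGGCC
Form 3: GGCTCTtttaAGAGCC
Form 4: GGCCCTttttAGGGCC
Form 5: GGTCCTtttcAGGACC
Form 6: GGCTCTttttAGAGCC
Form 1 was the commonest, in 26 genes (3 H1, 10 H2A, 8 H2B and 5 H3) and in no H4 gene. Form 2 was in 7 genes, form 4 in 2 and form 5 in 2, and all 11 are H4 genes. Form 3 was in 6 genes, namely Hist1h1t, Hist1h2bb, Hist1h2bk, Hist1h3c, Hist1h3e and Hist1h3f, and form 6 was in Hist2h2ac alone. The hairpin began 21 to 58 bases after the stop codon (median 31). In 22 of the 44 genes the annotated model runs on for more than 100 bases past the hairpin, to as far as 4884 bases in Hist1h1d, and these longer models enter the levels given per length.

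Stretches of promoter are shown for 4 of the highest genes, from the RefSeq sequence of build GRCm38.p6. They carry in capitals the short motifs known from histone promoters: GGTCCG, an element of H4 promoters, in Hist1h4h; AAACACA, an element of H1 promoters, and CCAAT in Hist1h1c; ATTTGCAT, the octamer bound by Oct-1, with CCAAT and TATAAA in Hist1h2bg; and CCAAT and TATAAA in Hist1h3h.
Hist1h4h (chr13:23530904-23531053, + strand): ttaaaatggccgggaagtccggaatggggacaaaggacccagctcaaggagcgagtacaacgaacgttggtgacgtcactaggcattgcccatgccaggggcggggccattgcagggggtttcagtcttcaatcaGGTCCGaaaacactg
Hist1h1c (chr13:23738667-23738806, + strand): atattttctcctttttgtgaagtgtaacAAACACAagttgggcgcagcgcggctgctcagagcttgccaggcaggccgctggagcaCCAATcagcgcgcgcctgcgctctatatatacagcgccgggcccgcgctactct
Hist1h2bg (chr13:23571221-23571399, + strand): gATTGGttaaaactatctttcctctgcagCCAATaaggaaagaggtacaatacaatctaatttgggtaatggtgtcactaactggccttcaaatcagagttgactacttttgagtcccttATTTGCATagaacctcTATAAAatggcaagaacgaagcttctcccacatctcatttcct
Hist1h3h (chr13:21717508-21717627, + strand): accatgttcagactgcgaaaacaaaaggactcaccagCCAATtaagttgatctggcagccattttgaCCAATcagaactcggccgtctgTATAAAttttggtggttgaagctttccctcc
The Hist1h4h stretch runs from 140 bases before the start of transcription to 10 bases after it, because the match begins 5 bases before the start. The Hist1h2bg stretch is all 179 bases between its start and that of Hist1h2ae, which is transcribed the other way.

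RefSeq promoters, from 250 bases before to 50 bases after the start, were matched for 62 of the 67 genes. Each motif was searched on both strands and compared with all 32851 promoters of the table. CCAAT was found in 53 of 62 (85.5%, against 37.4% of all promoters): in all 6 H1, 18 H2A, 16 H2B and 10 H3 promoters matched, but in 3 of 12 H4 promoters. GGTCCG was found in 13 of 62 (against 8.25% of all promoters), of which 11 are among the 12 H4 promoters. ATTTGCAT was also found in 13 of 62 (against 1.74%), which were 7 of 18 H2A and 6 of 16 H2B promoters and none of the other classes. AAACACA was found in 9 (14.5%, against 7.18%), among them 5 of 6 H1 promoters. TATAAA was found in 35 (56.5%, against 13.6%) and occurred in every class. The place of a match within the window was not restricted. Some H2A and H2B genes are transcribed away from each other, so their windows overlap. Their gene models start 175 to 305 bases apart, and the RefSeq starts used for the windows can differ from these. ATTTGCAT was found for both genes in 3 such pairs. These are Hist1h2ae with Hist1h2bg, Hist1h2ah with Hist1h2bk, and Hist1h2aa with Hist1h2ba. In all 3 pairs it is the same site, counted for each gene. The H2A and H2B counts of all motifs are therefore not counts of separate promoters. Of the 12 H4 promoters, 8 held TATAAA. The nearest upstream match lay 16 bases before the start in Hist1h4k and 32 in Hist1h4d. It lay 127 bases before it in Hist1h4n, 128 in Hist1h4m, 137 in Hist1h4i and 250 in Hist1h4f. Hist1h4a and Hist1h4j had no match wholly upstream of the start. None of the motifs contains another. A match describes the sequence and does not show that a factor binds there.

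The histone genes lie in 4 places of the mm10 genome. The Hist1 group has 54 genes on chromosome 13 in 2 blocks 1487 kb apart, with 23 genes at chr13:21715763-22043676 and 31 at chr13:23531050-23934851. The Hist2 group has 10 genes at chr3:96219865-96270132. Hist3h2a and Hist3h2ba lie at chr11:58948920-58956830, and Hist4h4 lies at chr6:136801553-136804415. In 12 places an H2A and an H2B gene are transcribed away from each other, with gene models that start 175 to 305 bases apart. Thus 24 of the 36 H2A and H2B genes form head-to-head pairs.

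Within a class the coding sequences are close copies, which limits how well reads can be assigned to a single gene. All 13 H4 genes code for the same protein of 103 residues, through 12 distinct coding sequences whose pairwise identity ranges from 85.4% to 100% (median 93.9%). The 12 H3 genes code for 2 proteins of 136 residues that differ at 1 residue. The variant called H3.2 comes from 8 genes (Hist1h3b, Hist1h3c, Hist1h3d, Hist1h3e, Hist1h3f, Hist2h3b, Hist2h3c1 and Hist2h3c2) and H3.1 from 4 (Hist1h3a, Hist1h3g, Hist1h3h and Hist1h3i). The 18 H2A genes code for 9 proteins, and 9 genes share the commonest. The 18 H2B genes code for 11 proteins, of which the commonest is shared by 6 genes. Each of the 6 H1 genes codes for a protein of its own. Residue counts include the first methionine.

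The gene tables held 36175363 expected counts in replicate 1 and 32509660 in replicate 2, and 10 of 10 heart muscle markers were expressed, with summed levels of 33205 and 33626 TPM (a level per length of transcript, scaled to the same total in each library). Other cells were present as well. Fibroblast markers (10 of 10 expressed) summed to 2107 and 2492 TPM, endothelial markers (10 of 10) to 576 and 588, and macrophage markers (9 of 10) to 50.8 and 71.6. Erythroid markers (6 of 9 found were expressed) summed to 17285 TPM in replicate 1 and 226 in replicate 2, and skeletal muscle markers (4 of 10) to 301 and 130. No marker of these lists was at 0 counts in both libraries. In tissue RNA, fewer cells of a type and less RNA per cell cannot be told apart.

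Histone messages were abundant in both hearts. A gene was called expressed at a TPM of at least 1 in both libraries, and 62 of the 67 (92.5%) were, against 54.5% of the 21901 genes with a coding transcript. A level of at least 100 TPM in both hearts was reached by 35 histone genes (52.2%), against 3.24% of coding genes. The expressed histone genes had a median of 133 TPM, against 12.6 TPM for expressed coding genes. Summed over all 67, the level was 9324 TPM in replicate 1 and 11165 in replicate 2, with a mean of 10245 ± 1302 (SD, n = 2), or 1.02% of all transcripts per length. As reads, the 67 genes took 126582 counts (0.350% of the library) in replicate 1 and 133339 (0.410%) in replicate 2. The 13 highest genes held 50% of the summed TPM. Levels and orders of single genes are those of the authors' gene table unless the second quantification of the same libraries, a deposited table of estimated counts per transcript, is named.

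**Figure D1:**
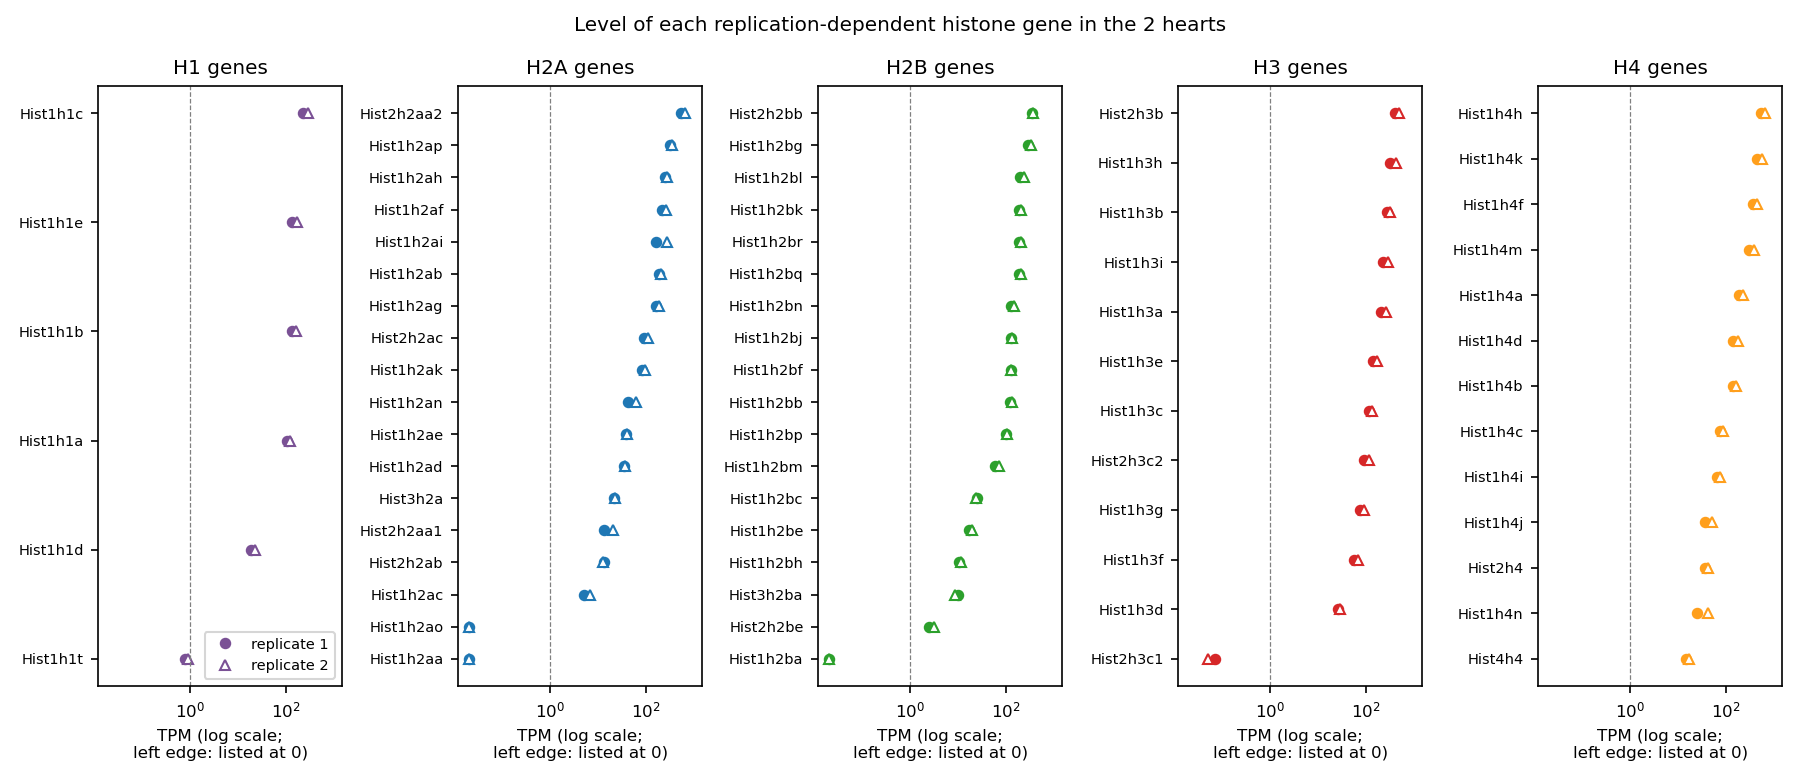
TPM of each of the 67 histone genes (log axis), by class, with filled circles for replicate 1 and open triangles for replicate 2; the dashed line marks 1 TPM and points at the left edge are listed at 0. In each class a few genes lie near or above 300 TPM, or for H1 above 200, and both hearts give nearly the same order.

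The core classes were present at similar summed levels per length, and H1 was lower. H4 summed to 2414 TPM in replicate 1 and 2960 in replicate 2 (2687 ± 386), and H2A to 2199 and 2645 (2422 ± 315). H2B summed to 2138 and 2363 (2250 ± 159), and H3 to 1951 and 2414 (2182 ± 327). Over the 2 hearts the range of each class overlapped that of its neighbour in this order. Every class was higher in replicate 2, so this overlap does not compare the classes within a heart. Within each heart H4 was above H2A, and H2A above H2B. H2B was above H3 in replicate 1 and below it in replicate 2. H4 did not overlap H2B in the gene table. In the second quantification described further on, the mean of H4 was instead below those of H2A and H2B. H1, of which the cell needs fewer copies per nucleosome, summed to 622 and 784 TPM (703 ± 114), below every core class in both hearts. The mean core class was 3.40 ± 0.131 times the H1 sum. This ratio is one of levels per length: as library-scaled reads (CPM) the mean core class was 1.01 times H1, and the H1 models are mostly longer. As mean CPM, H1 (757) lay above H2A (724) and H2B (664) and below H3 (804) and H4 (851). H1 genes held 19.9% of the histone reads and 6.85% ± 0.245 of the histone TPM.

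**Figure D2:**
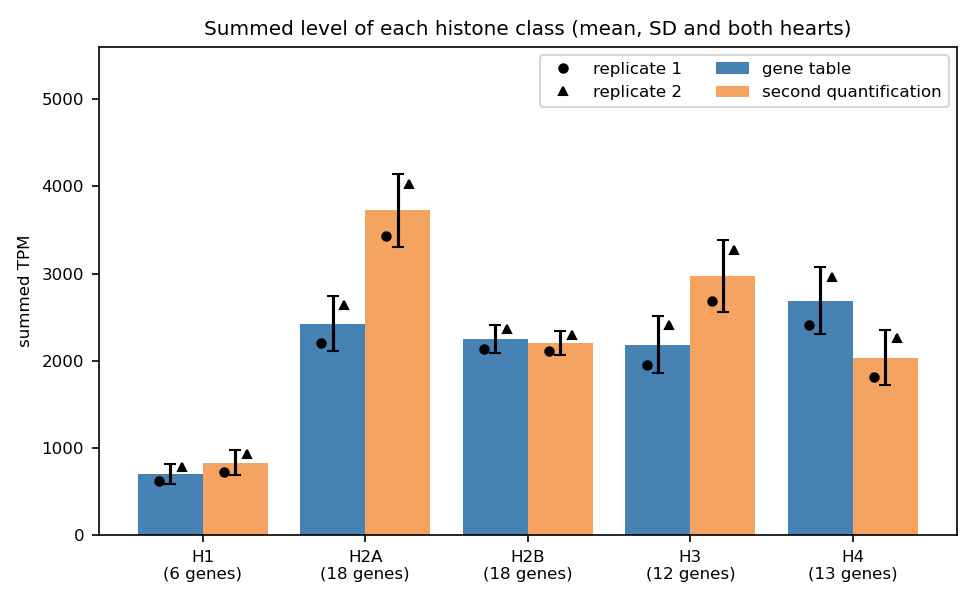
Summed TPM of the genes of each class, with bars for the mean and SD of the 2 hearts in the gene table (blue) and in the second quantification (orange), and points for each heart. H1 is lowest in both; H4 is the highest class in the gene table at 2687 and the lowest core class in the second quantification at 2035.

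Among the H1 genes, Hist1h1c, which codes for the linker histone H1.2, was highest at 226 TPM in replicate 1 and 296 in replicate 2 (9285 and 10600 counts; 261 ± 48.9 TPM). It held 37.1% of the H1 level. In the second quantification Hist1h1b was the higher of the 2, at 218 and 283 TPM against 208 and 270 for Hist1h1c, with overlapping ranges. Hist1h1e, which codes for H1.4, had 136 and 174 TPM, and Hist1h1b, which codes for H1.5, had 136 and 167. These 2 genes overlapped in their values. Hist1h1a (H1.1) had 104 and 123 TPM and Hist1h1d (H1.3) 19.1 and 23.1. The Hist1h1d level is divided by a model of 7425 bases, and its reads, 3924 and 4155, were more numerous than those of Hist1h1b (2460 and 2647). Hist1h1t, which codes for the H1 of the testis, had 18 counts in each heart (0.790 and 0.900 TPM) and did not reach 1 TPM.

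The highest H2A gene was Hist2h2aa2 at 542 TPM in replicate 1 and 653 in replicate 2 (6524 and 6874 counts). Its neighbour Hist2h2aa1 had 13.3 and 20.6 TPM. These genes code for the same protein, and every 100-base stretch of the Hist2h2aa2 model also occurs in Hist2h2aa1, so their sum of 614 ± 83.6 TPM is the firmer value. Hist1h2ap followed at 318 and 354 TPM, a gene that shares 92.2% of its 100-base stretches with Hist1h2ao, which was listed at 0. Hist1h2ah had 257 and 279 TPM and Hist1h2af 221 and 268. Hist1h2ai had 167 and 273 TPM (220 ± 75.0). The 5 highest genes held 68.8% of the H2A level. The highest H2A genes of the second quantification were Hist2h2aa1 (989 ± 133 TPM), Hist1h2ad (818 ± 125) and Hist1h2af (311 ± 41.8).

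Outside the Hist1 group, Hist2h2ac had 91.1 and 113 TPM, Hist3h2a 22.1 and 22.8, and Hist2h2ab 128 and 110 counts (13.1 ± 0.156 TPM). Like some others of the class, each of these 3 genes codes for a protein that no other H2A gene here shares. Both hearts gave almost the same level for Hist3h2a. Of its 100-base stretches, 29.8% also occur in Trim17, which overlaps it on the same strand. Hist1h2aa, which codes for the H2A of the testis, had 0 counts in both libraries, a value that allows up to 3 counts, or 0.0829 CPM in replicate 1 and 0.0923 in replicate 2.

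The highest H2B gene was Hist2h2bb at 354 TPM in replicate 1 and 372 in replicate 2 (2806 and 2577 counts). Hist1h2bg had 286 and 334 TPM, and the reads behind it, 4169 and 4252, were more than those of Hist2h2bb, over a longer model. Hist1h2bl had 195 and 238 TPM and Hist1h2bk 188 and 210. Hist1h2br and Hist1h2bq had 186 TPM each in replicate 1 and 205 and 204 in replicate 2. The last pair codes for the same protein, and all or nearly all their 100-base stretches are shared, with a posterior SD of 43.9% to 57.6% of the count for either gene. Their sum was 391 ± 26.2 TPM in the gene table and 0.882 ± 0.169 in the second quantification. The order of the H2B genes was not kept there either: Hist1h2bf (426 ± 35.2 TPM), Hist1h2bj (392 ± 40.8) and Hist1h2bb (366 ± 7.24) were highest, while Hist2h2bb had 135 ± 1.83, Hist1h2bg 184 ± 6.87 and Hist1h2bl 32.4 ± 6.70.

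The remaining H2B genes outside Hist1 were low: Hist3h2ba had 145 and 109 counts (9.34 ± 0.983 TPM) and Hist2h2be 2.54 and 3.15. Hist2h2be had 180 and 195 counts over a model of 2620 bases. Hist1h2ba, which codes for the H2B of the testis, had 0 counts in both libraries, as did its head-to-head neighbour Hist1h2aa.

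Among the H3 genes, Hist2h3b was highest at 400 TPM in replicate 1 and 502 in replicate 2 (4364 and 4793 counts). Hist1h3h had 322 and 425 TPM and Hist1h3b 277 and 325. Hist1h3i had 230 and 291 and Hist1h3a 210 and 260. From Hist2h3b down to Hist1h3a each gene's range overlapped that of its neighbour in the order. In the second quantification Hist2h3b (636 ± 87.1 TPM), Hist1h3b (607 ± 99.8) and Hist1h3a (311 ± 41.5) were highest, and Hist1h3h had 288 ± 31.1. Hist2h3c2 had 93.3 and 116 TPM, while Hist2h3c1 had 3 and 2 counts, none of whose 100-base stretches is unique to it. The 3 genes of the Hist2 group summed to 555 ± 88.2 TPM.

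The genes of H3.2 summed to 1113 and 1347 TPM (1230 ± 165; 7 of 8 expressed) and those of H3.1 to 838 and 1067 (952 ± 162; 4 of 4). In each heart H3.2 was higher, and the ranges of the 2 hearts did not overlap. The median gene of H3.1 was at 248 TPM and that of H3.2 at 115, while H3.2 has 8 genes and H3.1 has 4.

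All 13 H4 genes were expressed, from 16.0 ± 1.99 TPM for Hist4h4 to 606 ± 88.4 for Hist1h4h, a 38.0-fold range for genes with the same protein. Hist1h4h had 544 TPM in replicate 1 and 669 in replicate 2 (5663 and 6092 counts) and was the highest of all histone genes. Hist1h4k had 460 and 578 TPM, Hist1h4f 379 and 443, Hist1h4m 301 and 381, and Hist1h4a 192 and 229. The TPM of Hist1h4h and Hist1h4k overlapped between the hearts. By counts the order differed: Hist1h4d had 4192 and 4554 over a model of 1138 bases, and Hist1h4k 2754 and 3021 over 312. Across the 67 genes the Spearman correlation with model length was -0.44 for TPM and -0.02 for counts, given as a description. Hist1h4h was the highest H4 gene in the second quantification too, where Hist1h4k had 9.65 ± 5.79 TPM and Hist1h4f 12.2 ± 6.78. Hist2h4 had 36.0 and 43.4 TPM and Hist4h4 14.6 and 17.4. Both have long models, of 1630 and 2863 bases, and their reads (1546 and 1632, and 1129 and 1178) were within the range of the other H4 genes.

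The Hist1 genes held 83.0% ± 0.138 of the summed histone TPM, and 54 of the 67 genes belong to that group. The 10 Hist2 genes held 16.5% ± 0.0927, the Hist3 pair 0.314% ± 0.0448 and Hist4h4 0.156%. On chromosome 13, the block of 23 genes summed to 3783 and 4590 TPM and the block of 31 genes to 3949 and 4691. High genes were spread over both blocks. The lowest expressed genes of the 31-gene block, Hist1h2ac at 5.04 and 6.72 TPM and Hist1h2bh at 10.4 and 11.5, lay inside it, Hist1h2bh between Hist1h3g (76.0 and 90.2 TPM) and Hist1h3f (56.7 and 68.0). The testis pair Hist1h2ba and Hist1h2aa lay at its far end.

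**Figure D3:**
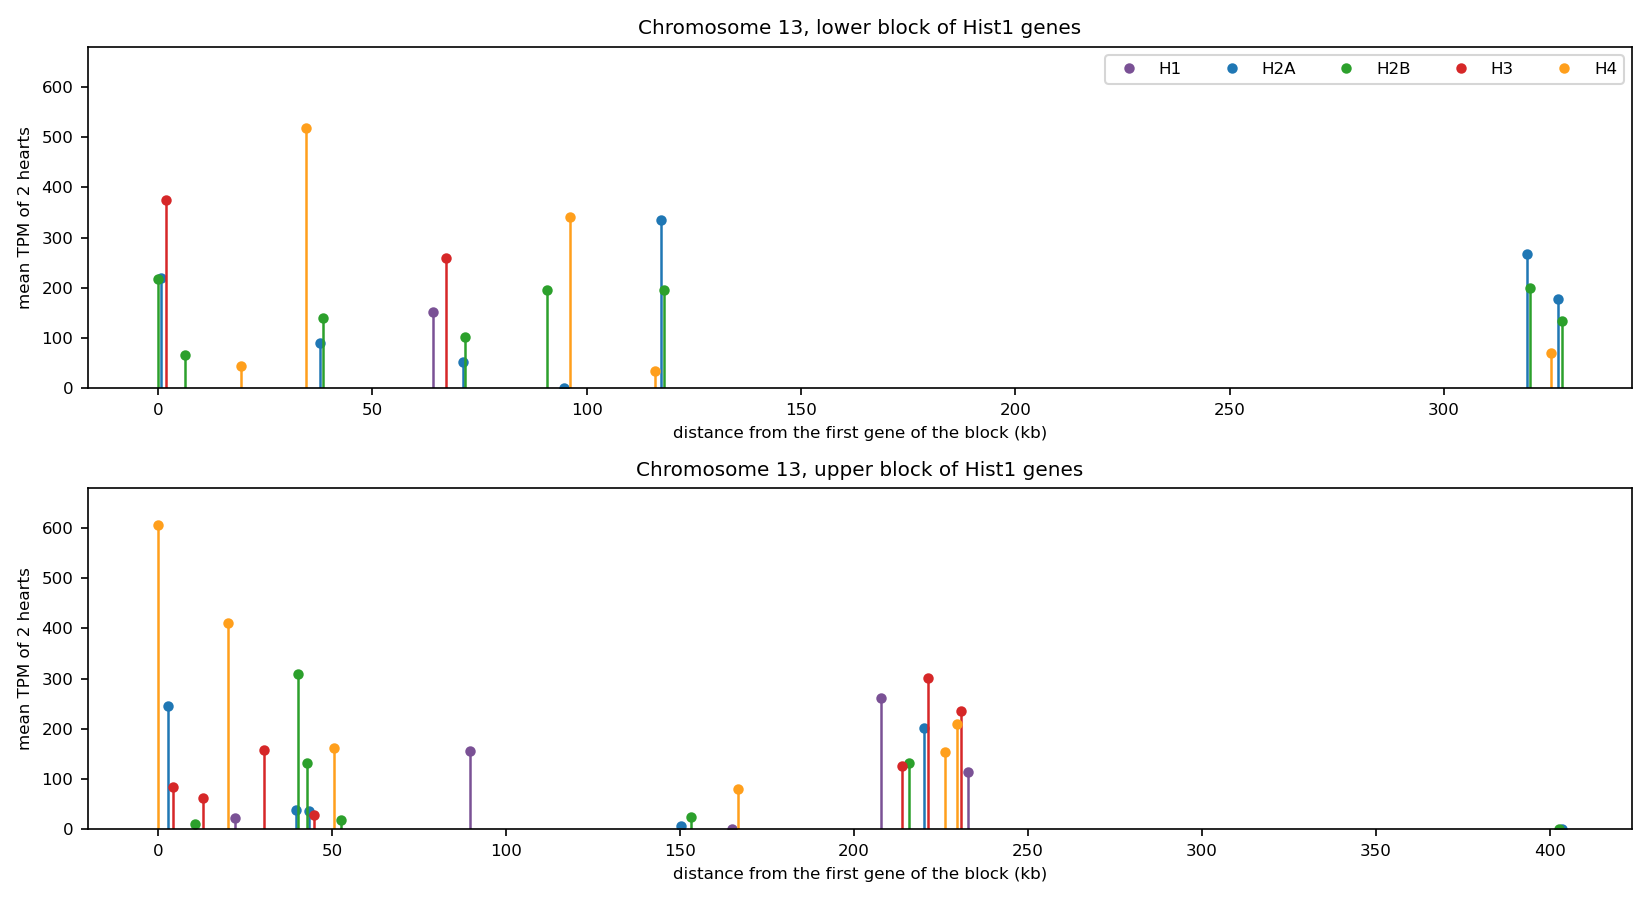
Mean TPM of the 2 hearts for each Hist1 gene against its distance in kb from the first gene of its block on chromosome 13, coloured by class. Genes above 300 TPM occur in both blocks beside genes below 50 TPM, and the last 2 genes of the upper block, Hist1h2ba and Hist1h2aa, are at 0.

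Genes of a head-to-head pair did not always have like levels. In the gene table, 6 of the 12 pairs had both genes expressed with mean levels within 2-fold of each other. Hist1h2ah and Hist1h2bk had 268 ± 15.9 and 199 ± 15.9 TPM, and Hist1h2ag and Hist1h2bj 177 ± 18.7 and 134 ± 4.79. In other pairs the levels were far apart: Hist1h2bg had 310 ± 33.7 TPM and Hist1h2ae 39.0 ± 1.63, and Hist2h2ac had 102 ± 15.6 and Hist2h2be 2.84 ± 0.431. Hist1h2bq was at 195 ± 12.7 TPM beside Hist1h2ao, listed at 0. The H2A gene was the higher one in 5 pairs, the H2B gene in 6, and Hist1h2ba and Hist1h2aa were both at 0. The second quantification changed these counts: 4 pairs lay within 2-fold, the H2A gene was higher in 8, and the higher gene of 5 pairs was the other one. Hist1h2ae, for example, had 242 ± 20.6 TPM there and Hist1h2bg 184 ± 6.87. These levels are per length, and close copies of the genes share reads. H2A and H2B genes with ATTTGCAT in the promoter (13 genes) had a median of 102 TPM and the 21 matched genes without it 131. This order turned in the second quantification, in which the genes with it had the higher median, 134 TPM. In 3 pairs ATTTGCAT was found for both genes, whose promoter windows overlap, so the 13 genes are not separate observations.

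Between the hearts most histone genes were slightly higher in replicate 2, and none differed by 2-fold in the gene table. Counts of replicate 2 were divided by those of replicate 1 after scaling with TMM, for genes with a mean TPM of at least 1 and at least 20 counts in all. Of the 62 histone genes tested, 53 were higher in replicate 2 and 9 lower, with a median log2 ratio of 0.17 (range -0.30 to 0.69), beside a median of -0.00 over all 13598 genes tested. The exact 95% counting interval lay wholly above 0 for 42 histone genes and wholly below 0 for none, beside 10.8% of all tested genes above and 12.9% below. Such an interval narrows as counts rise, and the histone genes are mostly at high levels, so these shares are not like for like. Close copies also share reads, so the 42 genes are not separate observations. A gene was called at 2-fold or more with an interval excluding equality. By this rule 0 of 62 histone genes were called, beside 0.324% of all tested genes called higher and 0.537% called lower. At 1.5-fold, 2 were called higher and 0 lower, beside 1.00% and 1.29% of all tested genes. The 2 were Hist1h4n (233 and 348 counts; log2 ratio 0.69, 95% interval 0.45 to 0.94) and Hist1h2ai (1376 and 1969 counts; 0.63, 0.53 to 0.73), both genes that share over 80% of their stretches with other histone genes. At 2-fold, 5 histone genes were called higher and 2 lower in the second quantification, beside 0.415% and 0.609% of the 14442 genes tested there. The interval covers counting error and not the spread between animals, so no difference between animals can be tested with 2 libraries.

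By class the median log2 ratio was 0.22 for H1, 0.16 for H2A, 0.07 for H2B, 0.18 for H3 and 0.19 for H4. All 5 tested H1, all 11 tested H3 and all 13 H4 genes were higher in replicate 2. Among the H2B genes 11 were higher and 6 lower, and 3 of 17 had an interval above 0. The scaling bears on these values: with the ERCC spike-ins the median of all genes moved to 0.13 and that of the histone genes to 0.30, a distance of 0.17 as before. Markers of other cells moved between the same libraries. Erythroid genes had a median log2 ratio of -6.29 (6 of 7 tested called lower), skeletal muscle genes -3.27 (6 of 6 called lower), macrophage genes 0.29 (9 of 9 higher, 0 called) and fibroblast genes 0.17 (9 of 10 higher, 0 called). Their part in the histone ratio was not tested.

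**Figure D4:**
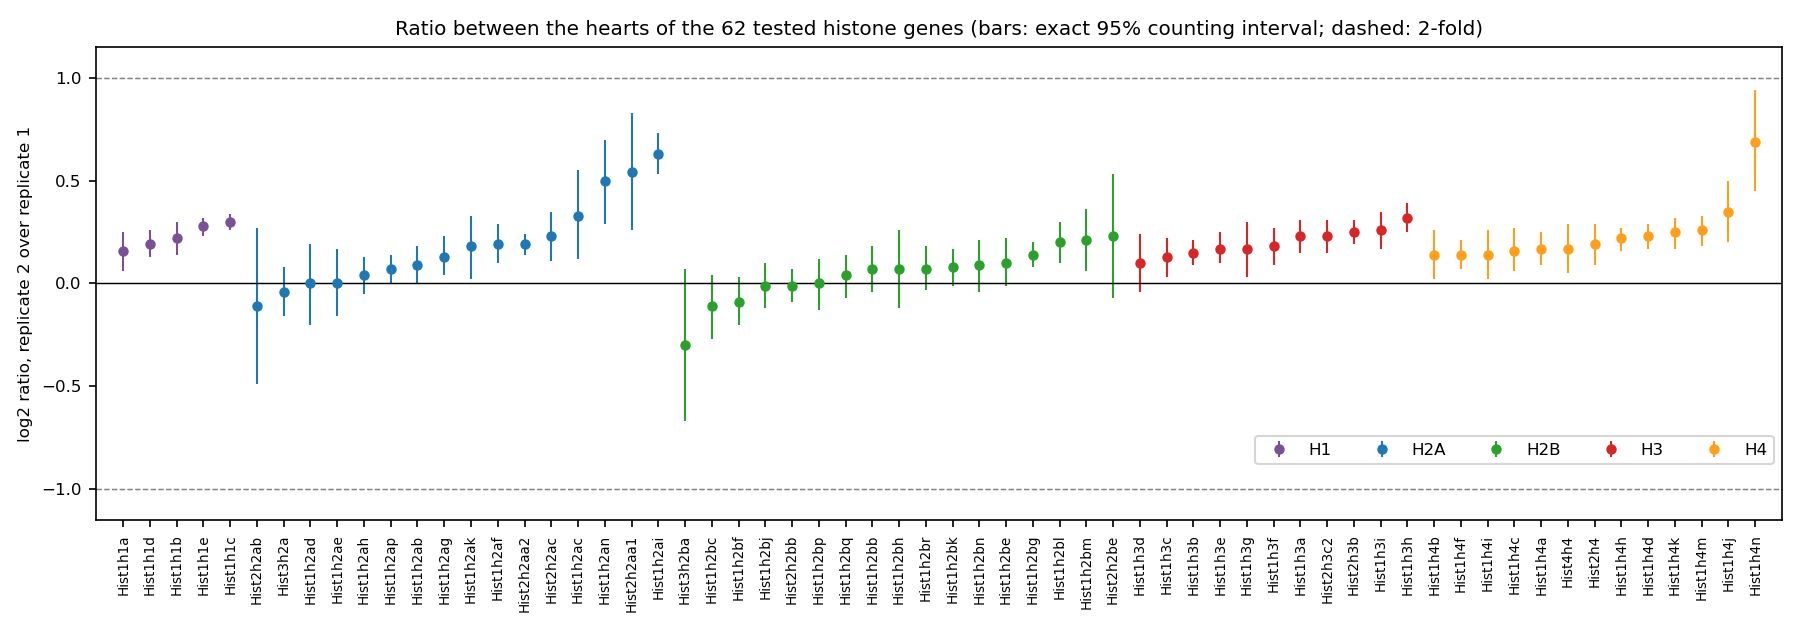
Log2 ratio of replicate 2 over replicate 1 for the 62 tested histone genes, ordered within class, with exact 95% counting intervals; dashed lines mark 2-fold. Most points lie between 0 and 0.35, no point passes 2-fold, and the H2B genes lie around 0.

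Genes that make, mature and use histone messages were examined as 4 lists. Of 14 regulators of histone transcription, 13 were expressed and tested, 10 were higher and 3 lower in replicate 2, none was called, and the median log2 ratio was 0.06. Trrap, a scaffold of histone acetyltransferase complexes, had 37.5 and 44.9 TPM. Cdk2, the kinase that drives entry into S phase with cyclin E, had 27.9 and 30.6, and the transcription factor Yy1 17.6 and 19.8. Npat, the coactivator at histone gene clusters that Cdk2 phosphorylates, was added after its values were seen and had 6.60 and 7.52 TPM (log2 ratio 0.03, 95% interval -0.10 to 0.15).

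Of 25 genes for maturation, translation and decay of histone messages found in the annotation, 24 were expressed and tested, with 13 higher, 11 lower, none called and a median of 0.00. The translation factor Eif4g1 had 166 and 165 TPM, and the Sm proteins Snrpb and Snrpe 97.9 and 101, and 66.2 and 70.9. Slbp, which binds the hairpin shown above, was also added after its values were seen, and had 14.8 and 18.6 TPM. Its log2 ratio was 0.17 (95% interval 0.01 to 0.32). Lsm10 and Lsm11, the subunits particular to the U7 particle that directs cleavage after the hairpin, had means of 7.45 ± 1.02 and 4.31 ± 0.184 TPM and were likewise singled out afterwards.

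Of 21 histone chaperones and assembly factors, all were expressed and tested, with 13 higher, 8 lower, none called and a median of 0.04. Npm1, a nucleolar chaperone, had 132 TPM in both hearts. Rbbp7, a histone-binding subunit of several chromatin complexes, had 109 and 117, and the chaperone Nap1l4 90.6 and 99.6. Of 22 DNA replication genes, all were expressed and tested, with 21 higher, 1 lower, none called and a median of 0.15. Pcna, the sliding clamp of the replication fork, had 80.7 and 94.6 TPM. Rrm2, the small subunit of ribonucleotide reductase, had 77.3 and 96.4, and the helicase subunit Mcm2 45.9 and 53.8. The 4 lists were thus at medians of 0.00 to 0.15 between the hearts, beside 0.17 for the histone genes and -0.00 for all genes. The difference between these medians was not tested.

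The second quantification, summed per gene, gave the histone genes a similar summed TPM, 11769 ± 1427, but divided it otherwise. Their summed counts were lower there, at 81759 in replicate 1 and 88025 in replicate 2, or 65.3% of those in the gene table. The Spearman correlation of mean TPM over the 67 genes was 0.46 between the quantifications and 0.997 between the hearts in the gene table. These are correlations across genes, which share libraries and near-identical sequence, and are given as a description. Only 36 of the 67 genes agreed within 2-fold. The level was at least 4-fold lower in the second quantification for 11 histone genes, against 0.413% of the 12100 coding genes at 1 TPM or more. It was at least 4-fold higher for 6 histone genes, against 1.38% of coding genes.

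The gap was widest for H4. The 13 H4 genes had 28098 and 30071 counts in the gene table and 7843 and 8807 in the second quantification, or 28.6% of the first. For H1 the share was 86.4%, for H2A 76.4%, for H2B 64.2% and for H3 75.3%. Of the 11 genes at least 4-fold lower, 7 are H4 genes. Hist1h4k had 2754 and 3021 counts in the gene table against 10 and 22, Hist1h4f 3105 and 3173 against 19 and 39, and Hist1h4d 4192 and 4554 against 34 and 127. All 100-base stretches of the Hist1h4d model are unique to it, and its posterior SD in the gene table was 0.0930% and 0.0793% of its counts. Shared stretches shorter than 100 bases were not counted. Hist2h4, whose 100-base stretches are also all unique, had 1546 and 1632 counts against 25 and 49. Hist1h4h went the other way in TPM, from 606 ± 88.4 to 1358 ± 175, at 5663 and 6092 counts against 4683 and 5037. The cause of the H4 gap was not tested.

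Among the other large differences, 2 were exchanges within a copy set. Hist2h2aa2 had 6524 and 6874 counts in the gene table and 0 in both hearts in the second, while Hist2h2aa1 went from 183 and 247 to 5669 and 6141. Their sum was 6707 and 7120 against 5669 and 6141, a much smaller change. Hist2h3b, Hist2h3c1 and Hist2h3c2 together had 6780 and 7413 counts against 6193 and 6769. For Hist1h2bq and Hist1h2br the sum itself fell away, from 3034 and 2917 counts to 31 and 37. Hist1h2ad had 466 and 430 counts in the gene table and 4373 and 4868 in the second. The testis gene Hist1h2ba, at 0 in the gene table, had 96 estimated counts in replicate 1 and 0 in replicate 2.

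**Figure D5:**
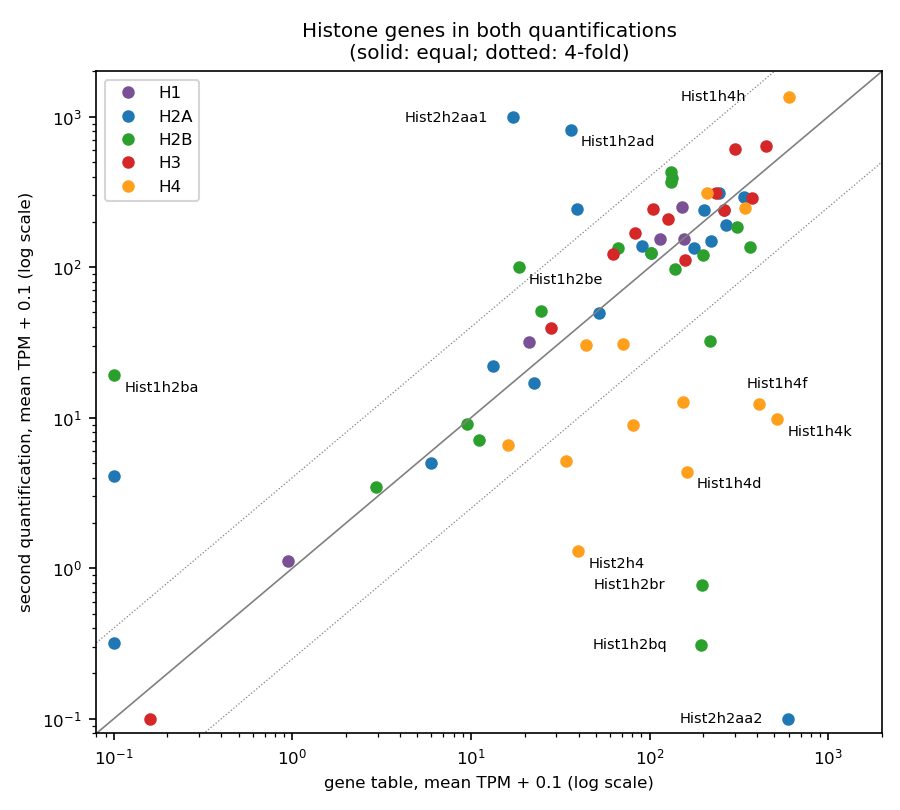
Mean TPM (plus 0.1, log axes) of the 67 histone genes in the gene table and in the second quantification, coloured by class; the solid line marks equality and dotted lines 4-fold. Of the 13 H4 genes in orange 7 lie below the lower dotted line and Hist1h4h lies above equality, while Hist2h2aa1 and Hist1h2ad lie above the upper one.

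No class sum in TPM moved by as much as 2-fold between the quantifications. H2A summed to 3728 ± 419 TPM in the second quantification and became the highest class, H3 to 2974 ± 413, H2B to 2203 ± 138, H4 to 2035 ± 312 and H1 to 828 ± 145. H1 stayed lowest in TPM, with the mean core class at 3.32 times its sum. By counts of the second quantification H1 was instead the highest class, at 20899 and 23785, with H3 next at 19927 and 21464. Its place thus rests on the division by length. H3.2 genes summed to 1968 ± 272 TPM and H3.1 genes to 1006 ± 141, the same direction as in the gene table. The Hist1 group held 81.4% of the summed TPM, and 58 of the 67 genes were expressed. Genes whose models have no bases after the stop codon (13 genes) kept 28.9% of their counts in the second quantification. Those with a hairpin kept 71.5% with at most 100 bases past it (22 genes) and 79.6% with more (22 genes). The chromosome 13 blocks of 23 and 31 genes kept 31.2% and 82.2%. What sets these shares was not tested. Of the 13 genes without bases after the stop codon, 11 were expressed in the gene table.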

How the data were processed

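Stranded libraries of total RNA, depleted of ribosomal RNA and with ERCC spike-ins added to 300 ng of input, were made from 2 hearts, per the labels. The authors deposited expected counts and TPM per gene for mm10 (GENCODE M21, per the file headers), and a second table of estimated counts and TPM per transcript, summed here per gene. No source used here names the programs. Posterior SDs, also deposited, mark counts that copies share.

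The genes and lists were chosen with earlier results of these data known. Counts were rounded and scaled by TMM (edgeR 4.0.16, R 4.3.3); ratios used a prior count of 0.5 and exact 95% Clopper-Pearson intervals. Intervals and the limit of 3 counts cover counting error only. With 2 libraries in 1 group no p-value was computed. The ratio rule was tested on simulated data. Named genes were the 5 highest of each class, members at 0, members called, the 8 that differed most between quantifications, members outside Hist1 and the top 3 of each regulator list; others were named after their values were seen. Hairpins were sought in transcript models only, since no genome sequence was used. Alternatives covered DESeq2 1.42.0 size factors, total counts, spike-ins, CPM, posterior mean TPM, other filters and the second quantification.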

Additional observations from a re-analysis of the deposited data

How the results depend on the processing

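In the second quantification the summed TPM was 11769, and the class sums were 828 for H1, 3728 for H2A, 2974 for H3 and 2035 for H4, with H2B within its spread. The Hist1 share was 81.4%. As CPM, without division by length, the sum was 3800, H1 757, H2A 724, H2B 664, H3 804 and H4 851. H1 was thus not the lowest class as CPM. With spike-in scaling the median log2 ratio was 0.30 for the histone genes, 0.19 for the transcription list, 0.17 for the chaperones and 0.28 for the replication list, while the median of all genes rose to 0.13. In the second quantification 5 histone genes were called higher in replicate 2 (Hist1h4c, Hist1h4d, Hist1h4k, Hist1h4f and Hist2h4, with 10 to 34 counts in replicate 1 and 22 to 165 in replicate 2) and 2 lower (Hist1h2ba, 96 and 0 counts, and Hist1h4n, 31 and 0), beside 0.415% and 0.609% of all genes tested there. At 1.5-fold 2 were called higher. With either heart alone the summed TPM was 9324 or 11165. The number expressed ranged from 58 to 63, and the hairpin count was 44 also with 1 mismatched pair. Of the 67 single levels, 60 moved beyond the spread of the hearts in the second quantification and 9 with posterior means. The cause of these shifts was not tested, apart from CPM, which by construction does not divide by length. Spike-in scaling of the second quantification was not run. No paired analysis was possible because the libraries form 1 group. For genes at 0 the depth allows up to 3 counts.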

Other observations

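Histone variants from genes outside the Hist groups, several of which are also made outside S phase, were chosen after the results were seen and give a scale for these levels. H3f3a and H3f3b, which code for the same H3.3 protein, had 425 and 443 TPM and 222 and 248 TPM, so that H3.3 messages summed to 648 and 691 TPM, below H3.1 (838 and 1067) and H3.2 (1113 and 1347) in both hearts of the gene table. In the second quantification H3.3 summed to 1044 ± 54.3 TPM, beside 1006 ± 141 for H3.1 and 1968 ± 272 for H3.2, so its order with H3.1 was not kept. H2afz had 140 and 168 TPM, H2afx 72.9 and 84.9 and H2afv 55.9 and 65.0. H1f0, the linker histone of cells that have stopped dividing, had 135 and 146 TPM, beside 136 and 174 for Hist1h1e. Cenpa, the H3 of centromeres, had 64.2 and 70.8. The 10 variant genes examined had log2 ratios between the hearts from -0.00 to 0.21.

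Hist1h2al, which has no protein-coding transcript in this annotation and was therefore no member, had 771 and 825 counts in the gene table and 0 in the second quantification. Gm20634, a noncoding transcript whose exons overlap Hist2h2aa1 on the same strand, had 90 and 81 counts in the gene table and 1143 and 1235 in the second. Gm42743, which overlaps Hist2h2bb on the same strand, had 188 and 116 counts against 1 and 1. Counts of these genes and of the histone genes they overlap cannot be told apart from the gene totals alone.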
